A study of Mus musculus with 6 samples.

Results

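Splicing regulators were followed through a pair of mouse double negative (DN) thymocyte populations, one of which carried a retrovirus for TLX3, a homeobox transcription factor activated in human T-cell leukaemia. The set held 70 of the 19937 genes that had a probe set naming 1 gene on the array. It comprised 10 SR proteins, 2 Tra2 proteins, 3 CLK kinases, the kinase Prpf4b, 2 cyclins L, 3 proteins that build nuclear speckles, 3 LUC7L proteins, 29 RBM proteins and 17 hnRNPs. Members were taken by gene symbol, and each was read by its probe set with the highest mean over the 6 arrays. The families were chosen by how their genes differed between these same groups, so the members' own differences, calls and p-values are given as a description and support nothing about the families.

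The 3 RAG-/- arrays held DN thymocytes of Rag2-/- mice, which cannot rearrange antigen receptor genes and so stop at the DN stage. The 3 DNTLX3+ arrays held sorted wild-type DN thymocytes transduced with pMSCV-GFP-TLX3, a vector that drives TLX3 from the promoter of a murine stem cell virus, and then kept for 4 to 5 weeks on gamma-irradiated OP9-DL1 stroma, which presents a Notch ligand, in medium with IL-7 and Flt3L. The protocol shared by all samples names C57Bl/6 mice 4 to 6 weeks old. Host genotype, virus and possibly culture differed together, and no empty-vector array was analysed here, so their parts in any difference cannot be told apart. Whether the 3 arrays of a group stand for separate animals or separate cultures is not given in the labels, and the p-values rest on array-to-array spread that may be technical only.

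Splicing removes introns through the spliceosome, whose choice of splice sites is steered by proteins that bind the transcript. SR proteins carry a tail of arginine and serine repeats and mostly promote the use of nearby splice sites, while hnRNPs coat nascent RNA and often oppose them. CLK kinases phosphorylate those tails in the nucleus and release SR proteins from nuclear speckles, the stores built around Son and Srrm2, and several of these genes control their own transcripts through retained introns or exons that trigger decay.

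Values below are log2 intensities as deposited, and each difference is DNTLX3+ minus RAG-/- with its standard error from limma (n = 3 arrays a group). A gene was called where its Benjamini-Hochberg adjusted p was under 0.05 and its difference was at least 1, a change of 2-fold. Of the 70 members, 15 were called lower (21.4%) and 0 higher, against 5.07% of all genes called lower and 1.44% called higher. At the adjusted p alone 35 members were lower and 9 were higher, against 19.4% and 23% of all genes. These counts were 23 lower without RAG-/- replicate 1, 5 higher without RAG-/- replicate 3 and 14 higher after a second quantile normalization. The shares of all genes at the adjusted p alone were not counted under these settings, so the shifts may not concern the members in particular. In 41 members all DNTLX3+ arrays lay below all RAG-/- arrays, in 14 they lay above, and in 15 the groups overlapped. The shares over all genes were 26% below and 32.3% above. The median difference of the members was -0.42, against 0.11 over all genes. The deposited values were spread over a narrower range in DNTLX3+, with an interquartile range of 2.47 to 2.85 over all probe sets against 3.09 to 3.18 in RAG-/-. The median difference of all genes was 0.30 below the median level of probe sets and negative in each band of level above it. Under the 3 other scalings tried, the median of all genes was 0.04 after a second quantile normalization, 0.00047 after cyclic loess and 0.045 with equal array medians, and that of the members was -0.25, -0.27 and -0.48.

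Level on the array bore on these backgrounds. Of the members, 64 were at or above the median level of all probe sets tested, and 14 of those were called lower. Among the 10756 genes at or above that level, 7.62% were called lower and 1.37% higher, 30.6% and 15.1% passed the adjusted p alone in each direction, 41.3% and 22.2% did not overlap below and above, and the median difference was -0.14. Between levels of 9 and 10, 6 of 20 members were called lower with a median of -0.41, where 6.78% of all genes were called lower with a median of -0.15. Between 10 and 11 it was 4 of 14 members with a median of -0.63, where 5.12% of genes were called lower with a median of -0.087. Above 11 it was 0 of 13 members, with a median of -0.18 that lay beside -0.19 for all genes of that level.

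The largest fall in the set was that of Clk1, and its paralog Clk4 followed it, while Clk3 did not move with them. Clk1 read 11.36, 11.14 and 11.30 in the RAG-/- arrays and 9.29, 9.35 and 9.67 in the DNTLX3+ arrays. Every DNTLX3+ array lay more than 1 below every RAG-/- array, and the difference was -1.83 ± 0.14, or 3.56-fold lower (adjusted p = 7.63e-05, limma). Clk4 read 9.59, 9.48 and 9.50 against 7.55, 7.71 and 8.42, a difference of -1.63 ± 0.21 or 3.09-fold lower. Its DNTLX3+ arrays were spread more widely, with replicate 3 nearest to the RAG-/- arrays, but the groups did not overlap. Clk3 read 9.54, 9.46 and 9.51 against 9.32, 9.50 and 9.53, so its groups overlapped. Its difference of -0.054 ± 0.12 did not pass the test, and turned to 0.077 after a second quantile normalization and to 0.086 after cyclic loess. Clk2 had no probe set of its own symbol alone and was not analysed here.

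Other kinase and cyclin members fell with them. Prpf4b, a kinase of spliceosomal proteins, read 9.83, 9.80 and 9.82 in RAG-/- and 8.48, 8.69 and 8.73 in DNTLX3+, a difference of -1.18 ± 0.12. Ccnl1 encodes cyclin L1, a partner of the CDK11 kinases in speckles. It read 10.19, 10.16 and 10.18 against 8.77, 8.67 and 9.13, a difference of -1.32 ± 0.15 or 2.49-fold lower. Its paralog Ccnl2 read 10.18, 10.06 and 10.16 against 8.77, 8.70 and 9.22, a difference of -1.23 ± 0.16. Both cyclins stood apart between groups by about the same amount, and in both the DNTLX3+ replicate 3 was highest of its group.

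Promoters of 4 members are printed to set the paralogs Clk4 and Clk3, whose differences between groups were unlike, beside 2 of the larger falls. Other large falls, such as Clk1, Rbm26 and Rbm47, are not printed. The sequences are RefSeq's on GRCm38.p6 and run 5′ to 3′ on the gene's strand, from 250 bases before the start site to 50 after it. They lie at chr11:51262864-51263163 on the plus strand for Clk4, chr9:57765065-57765364 on the minus strand for Clk3, chr3:65958200-65958499 on the minus strand for Ccnl1 and chr12:80945249-80945548 on the plus strand for Srsf5. Capitals mark letters that matched any of the 8 motifs searched.
Clk4: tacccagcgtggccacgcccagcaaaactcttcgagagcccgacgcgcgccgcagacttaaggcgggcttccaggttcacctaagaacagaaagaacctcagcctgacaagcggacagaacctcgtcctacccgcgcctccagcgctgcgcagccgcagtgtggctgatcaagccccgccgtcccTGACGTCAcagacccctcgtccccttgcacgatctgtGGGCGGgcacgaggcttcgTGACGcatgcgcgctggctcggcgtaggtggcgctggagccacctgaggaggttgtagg
Clk3: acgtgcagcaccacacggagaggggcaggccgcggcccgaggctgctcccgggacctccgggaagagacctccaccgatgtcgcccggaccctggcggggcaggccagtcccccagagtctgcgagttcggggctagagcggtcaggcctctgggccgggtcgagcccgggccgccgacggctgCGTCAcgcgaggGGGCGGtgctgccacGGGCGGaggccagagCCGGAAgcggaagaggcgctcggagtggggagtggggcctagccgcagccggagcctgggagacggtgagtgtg
Ccnl1: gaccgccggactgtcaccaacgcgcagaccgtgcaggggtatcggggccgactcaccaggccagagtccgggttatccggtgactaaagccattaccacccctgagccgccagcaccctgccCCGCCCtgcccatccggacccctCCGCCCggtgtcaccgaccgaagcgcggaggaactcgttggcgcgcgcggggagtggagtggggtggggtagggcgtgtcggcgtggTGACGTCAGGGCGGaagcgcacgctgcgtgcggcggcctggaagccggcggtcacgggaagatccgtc
Srsf5: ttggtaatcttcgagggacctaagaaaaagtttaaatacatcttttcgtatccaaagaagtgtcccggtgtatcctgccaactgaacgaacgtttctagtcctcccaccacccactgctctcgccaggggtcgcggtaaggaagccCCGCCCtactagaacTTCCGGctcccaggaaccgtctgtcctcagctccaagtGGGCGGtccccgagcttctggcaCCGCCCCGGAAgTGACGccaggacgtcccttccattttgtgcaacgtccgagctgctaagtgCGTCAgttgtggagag

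Each motif was searched on both strands. The motif of the CREB and ATF factors was TGACGTCA, and its short form TGACG, which lies inside the full one, was searched as well. The motif of NF-Y was CCAAT, that of the ETS factors was CCGGAA, that of the SP and KLF factors was GGGCGG and the E-box was CACGTG. The TATA box was searched as TATAAA, and the motif of NRF1 was searched too. In Srsf5 a GGGCGG match and a CCGGAA match share letters. The full TGACGTCA stood 65 bases before the start site in Clk4 and 18 before it in Ccnl1, while Clk3 and Srsf5 matched the short form but not the full one. Those 2 genes were the ones with a full match among the 13 called members with a promoter in the table, which had 16 promoters. Among all 32851 promoters the share that held it was 1.79%, and 1 of 62 promoters of the other members did. Members' promoters held GGGCGG in 64.1% and CCGGAA in 33.3%, against 35.7% and 14.9% of all promoters. Promoters of members called lower held them in 50% and 18.8%. The short form TGACG was held by 50% of members' promoters, 31.2% of those called lower and 20.8% of all. CCAAT was held by 43.6% of members' promoters against 37.4% of all, CACGTG by 8.97% against 7.15%, the NRF1 motif by 11.5% against 4.6% and TATAAA by 8.97% against 13.6%. Of the 16 promoters of members called lower, 37.5% held CCAAT and 12.5% TATAAA, while 0 held CACGTG and 0 the NRF1 motif. In all, 61 of the 70 members were matched to the table, and a match of letters describes the window and is not a bound site.

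Among the speckle proteins Son fell, Srrm2 was lower by less than the call asks for, and Srrm1 was not lower. Son, which holds speckles together and aids the splicing of weak introns, read 10.78, 10.64 and 10.71 against 9.36, 9.66 and 9.77, a difference of -1.11 ± 0.14. Srrm2, the other speckle scaffold, read 11.53, 11.49 and 11.55 against 10.47, 11.10 and 11. Its difference of -0.66 ± 0.17 passed the adjusted p but not the size, and DNTLX3+ replicate 1 stood well below the other two. Srrm1, a splicing coactivator with arginine and serine repeats, read 9.27, 9.18 and 9.28 against 9.41, 9.54 and 9.62. Its arrays did not overlap in the upward direction, but its difference of 0.27 ± 0.12 did not pass the adjusted p (0.094, limma). Without DNTLX3+ replicate 1 the difference of Son was -0.99 and no longer called.

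All 3 LUC7L genes, relatives of a yeast protein of the U1 particle that helps choose 5′ splice sites, passed the adjusted p in the lower direction, and only Luc7l reached a difference of 1. Luc7l read 9.65, 9.51 and 9.63 against 8.43, 8.41 and 8.77, a difference of -1.06 ± 0.14. Luc7l2 read 11.37, 11.19 and 11.15 against 10.04, 10.36 and 10.46, a difference of -0.95 ± 0.15. Luc7l3 read 10.72, 10.65 and 10.68 against 9.79, 9.49 and 10.06, a difference of -0.90 ± 0.16. In none of the 3 did the groups overlap, and their differences were of like size, from -0.90 to -1.06. Luc7l and Rbm41 (-1.05) were the called members nearest to the threshold, and Rbm5 (-0.97) and Luc7l2 were the nearest outside it. Luc7l was no longer called after a second quantile normalization, after cyclic loess, with array weights or without DNTLX3+ replicate 2.

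**Figure D1:**
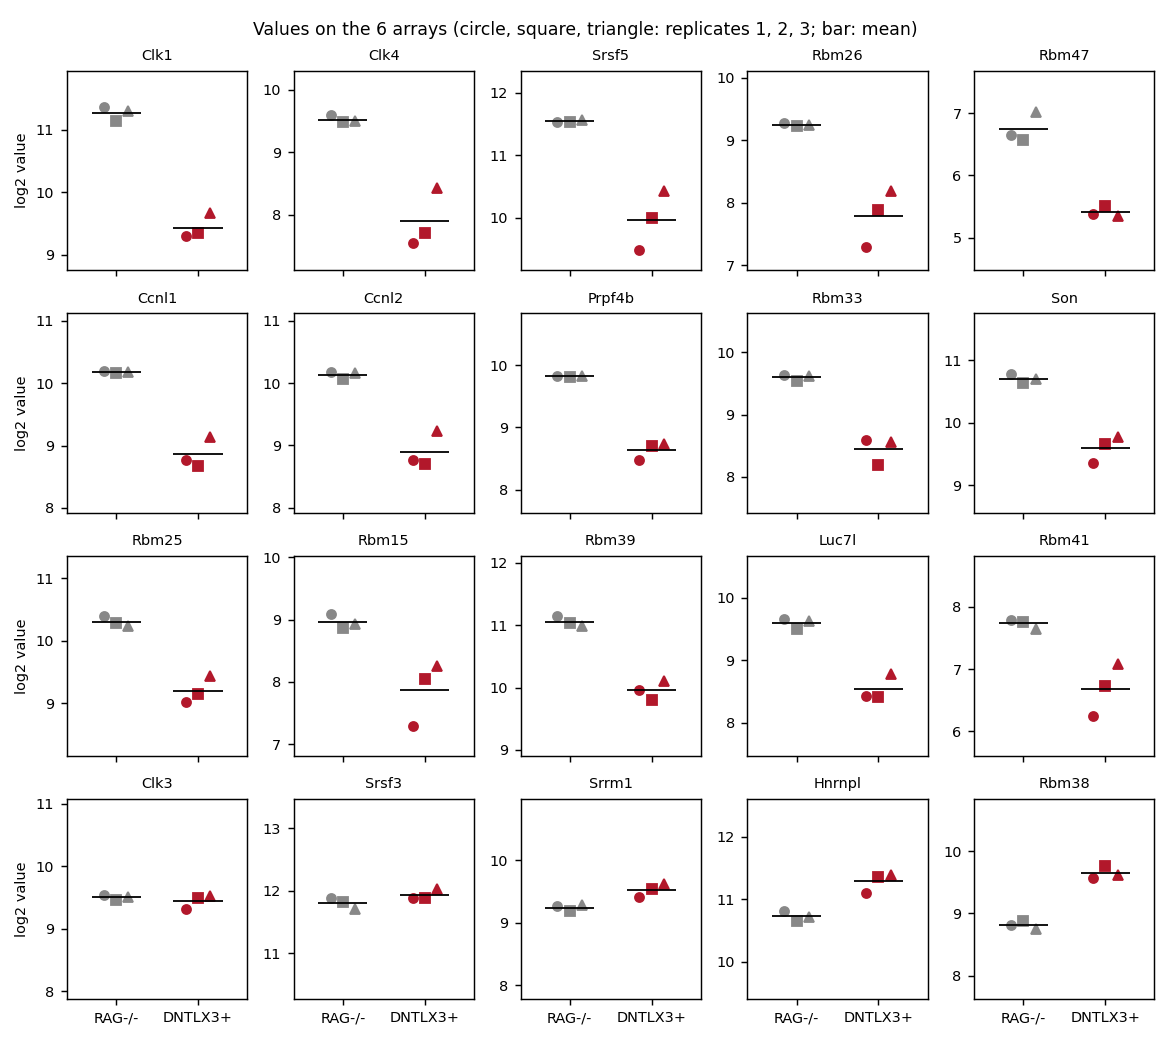
Value in each of the 6 arrays, on the log2 scale, for the 15 members called lower, with the group means as bars. All 3 RAG-/- arrays lay above all 3 DNTLX3+ arrays in each of the 15 genes, which picking genes by the call makes likely. Over all genes 26% lay so, and 41.3% of genes at or above the median level. DNTLX3+ replicate 3 was the highest of its group in 13 of the 15. Over all genes it was highest in 5660 of 19937, and in 3481 of the 10756 at or above the median level.

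Among the SR proteins, 1 of 10 was called lower (10%) and 0 higher. This was near the 7.62% called lower among genes at or above the median level, where 9 of the 10 lay. At the adjusted p alone 4 were lower (40%) and 2 higher (20%), against 30.6% and 15.1% of genes of that level. Srsf5, an SR protein whose transcript is itself alternatively spliced, read 11.54, 11.53 and 11.57 against 9.48, 9.99 and 10.43, a difference of -1.58 ± 0.21. The RAG-/- arrays were almost equal and the DNTLX3+ arrays ran over nearly 1 log2 unit. Its second probe set read 11.15, 11.17 and 11.18 against 10.15, 10.32 and 10.42, a difference of -0.87 ± 0.12, lower in every array but by less, and it is numbered among another chromosome than the gene. Srsf6 (-0.46), Srsf10 (-0.44) and Srsf4 (-0.43) were lower at the adjusted p alone, though Srsf10 did not pass it at its other probe set, and Srsf1 (-0.32), Srsf11 (-0.22) and Srsf2 did not pass it. Srsf2, which binds exonic enhancers and is mutated in human myeloid disease, read 11.15, 11.28 and 11.07 against 10.79, 11.14 and 11.01, a difference of -0.19 with overlapping groups.

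The remaining SR proteins were not lower. Srsf3, the smallest of the family's classical members, read 11.88, 11.81 and 11.71 against 11.89, 11.89 and 12.03, a difference of 0.14 ± 0.12. Its other probe sets gave -0.68 and 0.74, so no direction held, and the -0.68 came from the one numbered among the gene's own chromosome. Srsf9 read 8.99, 8.95 and 8.93 against 9.20, 9.48 and 9.41, a difference of 0.41 ± 0.13, and passed the adjusted p alone. Srsf12, an SR protein known to repress splicing, read 5.34, 5.44 and 5.42 against 6.27, 5.97 and 6.05, a difference of 0.70 ± 0.13. Its mean over the 6 arrays lay under the median level of all probe sets, and its groups did not overlap. Srsf7 had no probe set in the annotation used.

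The Tra2 proteins, which bind GAA-rich exonic enhancers beside SR proteins, differed by probe set. Tra2a read 9.47, 9.37 and 9.34 against 9.004, 8.85 and 8.92, a difference of -0.47 ± 0.12 that passed the adjusted p alone. A second probe set gave -0.74 ± 0.19. The last one read 8.72, 8.46 and 8.95 against 6.13, 6.76 and 7.90, a difference of -1.78 ± 0.37. That last one met the call (adjusted p = 0.00557, limma), but it was not the probe set used for the gene. All 3 were lower in DNTLX3+, over a span of 1.31 between them. Tra2b read 10.99, 10.76 and 10.83 against 10.53, 10.67 and 10.79, a difference of -0.20 with overlapping groups, and its second probe set gave -0.50, which passed the adjusted p alone.

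Some members were read by several probe sets, and not all of these may lie at the gene they are named for. Probe set numbers on this array run by chromosome, since 95.9% of single-symbol probe sets had most of their 10 nearest neighbours by number on their own gene's chromosome. For 10 of the 89 member probe sets none of the 10 neighbours was, and 5 of those were the probe sets used, for Hnrnpf, Hnrnpk, Srsf3, Srsf10 and Tra2b. Such a probe set may read a near-identical copy elsewhere, so these 5 values are uncertain. The probe sets used for the 15 members called lower were all numbered among their own chromosome. With probe sets so numbered, a choice made after the data were seen, the same 15 members were called, Srsf3 gave -0.68, Hnrnpk 0.26, Srsf10 -0.33, Tra2b -0.50 and Hnrnpf -0.042, and the median of the hnRNPs was -0.042. Of the members 12 had more than 1 probe set, 31 in all. In 4 of the 12 the probe sets differed in sign, namely Hnrnpf, Hnrnph2, Hnrnpk and Srsf3. In 5 they spanned more than 0.5, with 1.42 in Srsf3, 1.31 in Tra2a, 1.03 in Rbm33, 0.89 in Rbm25 and 0.71 in Srsf5. Among the called members with several, Rbm25, Rbm33 and Srsf5 had every probe set lower, by unequal amounts, and the second probe set of Srsf5 was one of the 10 numbered elsewhere. Isoform use was not tested, since the deposited values give 1 number per probe set.

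**Figure D2:**
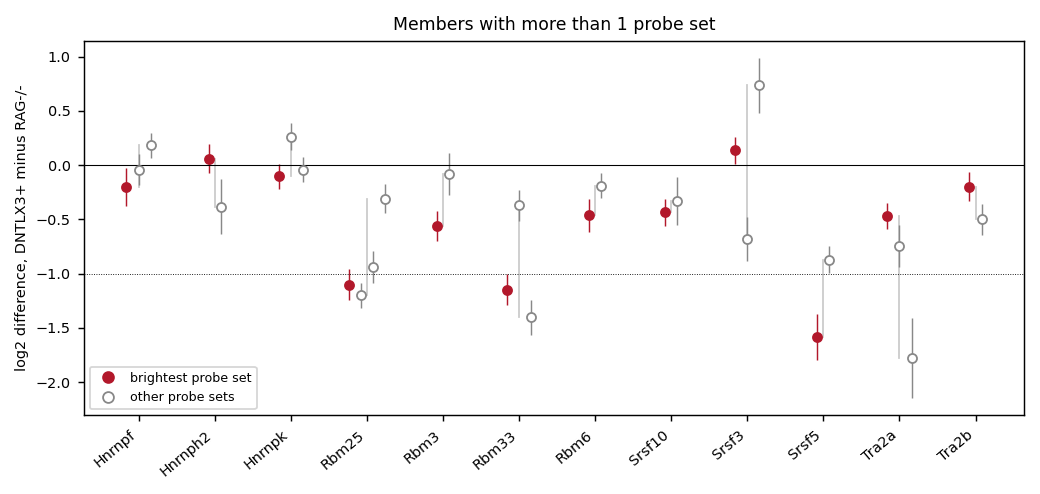
Difference between groups, on the log2 scale as DNTLX3+ minus RAG-/-, for every probe set of the 12 members that had more than 1. Each dot is 1 probe set, and the span between probe sets of 1 symbol was 1.42 in Srsf3, where the signs differ and 2 of the 3 are numbered among another chromosome, and 1.31 in Tra2a, where all 3 are negative.

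The RBM group, named for a shared RNA recognition motif and of mixed function, was the largest family. Of its 29 genes 7 were called lower (24.1%) and 0 higher. Among genes at or above the median level, where 24 of the 29 lay, 7.62% were called lower and 1.37% higher. At the adjusted p alone 15 RBM genes were lower (51.7%) and 5 higher (17.2%), against 30.6% and 15.1% of genes of that level. The median difference of the group was -0.44. Rbm26, a partner of the nuclear RNA decay machinery, read 9.29, 9.22 and 9.24 against 7.28, 7.89 and 8.18, a difference of -1.46 ± 0.21 or 2.76-fold lower. Rbm39, a relative of the splicing factor U2AF that also acts in transcription, read 11.15, 11.03 and 10.98 against 9.96, 9.79 and 10.11, a difference of -1.10 ± 0.13. Rbm25, which regulates splice choice in Bcl-x in human cells, read 10.40, 10.28 and 10.24 against 9.02, 9.15 and 9.43, a difference of -1.10 ± 0.14. In each of these 3 every DNTLX3+ array lay below every RAG-/- array. The other probe sets of Rbm25 gave -1.20, -0.94 and -0.31.

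Of the other RBM genes called, Rbm33 read 9.64, 9.54 and 9.61 against 8.59, 8.19 and 8.55, a difference of -1.15 ± 0.14, and its other probe sets gave -0.37 and -1.40. Rbm15, which guides the enzyme that methylates adenosines in RNA, read 9.09, 8.87 and 8.93 against 7.29, 8.05 and 8.25, a difference of -1.10 ± 0.23. Its 3 DNTLX3+ arrays had an SD of 0.51, the largest of the called members, with replicate 1 lowest. Rbm41 read 7.79, 7.76 and 7.65 against 6.24, 6.73 and 7.08, a difference of -1.05 ± 0.20, again with replicate 1 lowest. Without that array the differences of Rbm15 and Rbm41 were -0.81 and -0.83, and neither was called. Rbm15, Rbm33 and Rbm41 were also not called after a second quantile normalization or cyclic loess, nor Rbm25 after cyclic loess, and with probe-set means neither Rbm25 nor Rbm33 was called.

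Rbm47, a cofactor of cytidine-to-uridine RNA editing that is known from epithelia, read 6.65, 6.56 and 7.02 against 5.38, 5.51 and 5.35, a difference of -1.33 ± 0.15. Its DNTLX3+ values lay under the median of their arrays, so no fold is given, and RAG-/- replicate 3 was the highest. The summed linear signal of 12 thymic epithelial markers was 7076 to 12783 in the RAG-/- arrays, highest in replicate 3, as was the sum of the 14 myeloid and dendritic markers, and 1464 to 1644 in DNTLX3+, and 7 of the 12 fell. The part of such cells in the value of Rbm47 was not tested.

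Higher values in the RBM group stayed under the call. Rbm38, which binds mRNA of cell cycle genes and is a target of p53, read 8.82, 8.88 and 8.75 against 9.57, 9.76 and 9.62, a difference of 0.83 ± 0.12. It was the largest difference upward in the whole set, with no overlap between groups. Rbm46 (0.82), Rbm24 (0.71), Rbm17 (0.55) and Rbm22 (0.37) were also higher at the adjusted p alone. The mean of Rbm46 over the 6 arrays, 4.88, lay under the median level of all probe sets, 6.256, and that of Rbm24, 6.33, just above it. Under that level the median difference of all genes was 0.30. Rbm46 is known from germ cells and Rbm24 from muscle, whereas Rbm17 and Rbm22 are proteins of the spliceosome itself. Rbm5, a regulator of Fas splicing, read 10.56, 10.39 and 10.48 against 9.36, 9.39 and 9.77. Its difference of -0.97 ± 0.15, which is given for its place beside the threshold, became a call with equal array medians and without RAG-/- replicate 2 or DNTLX3+ replicate 3.

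Rbm3, one of a pair of RNA-binding proteins induced by mild cold, read 11.62, 11.55 and 11.44 against 10.82, 11.18 and 10.93. The difference was -0.56 ± 0.14, and -0.08 at its second probe set. Cirbp, the other of the pair and no member, differed by -0.44 ± 0.12 (adjusted p = 0.0174, limma). Both were lower at the adjusted p alone.

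None of the 17 hnRNPs was called, and their median difference was -0.17. Their median level lay between 10 and 11, where the median difference of all genes was -0.087, and above 11 it was -0.19. At the adjusted p alone 5 were lower (29.4%) and 2 higher (11.8%). All 17 lay at or above the median level, where the shares of all genes were 30.6% and 15.1%. The count of lower hnRNPs was thus near that of other genes of this level. Hnrnph1, which binds runs of G, read 11.30, 11.26 and 11.30 against 10.33, 10.51 and 10.62, a difference of -0.80 ± 0.13, the largest of the family. Hnrnpdl (-0.77), Hnrnpll (-0.64), Hnrnpa2b1 (-0.55) and Hnrnpr (-0.42) were the others lower at the adjusted p alone. Hnrnpll and Hnrnpl both control the alternative exons of CD45 in T cells, and they lay in opposite directions. Hnrnpl read 10.81, 10.65 and 10.72 against 11.11, 11.35 and 11.40, a difference of 0.56 ± 0.13, with no overlap. Hnrnpa0 (0.41) was the other one higher at the adjusted p alone. Hnrnpk, which binds C-rich RNA, read 12.24, 12.29 and 12.24 against 12.08, 12.16 and 12.21. Its difference was -0.11, its other probe sets gave 0.26 and -0.04, and its sign turned after a second quantile normalization (0.012). The median of the hnRNPs was -0.060, -0.12 and -0.23 under quantile, loess and equal-median scaling, so it stayed negative in all 3, as did the median of each other family.

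The rest of the splicing pathway was read from 4 lists, with adjusted p from limma over all probe sets. The backgrounds over all genes were again 5.07% lower and 1.44% higher. Nearly all genes of the lists lay at or above the median level, where 7.62% of genes were called lower and 1.37% higher. At that level 30.6% were lower and 15.1% higher at the adjusted p alone, against 19.4% and 23% of all genes. The core of the spliceosome, its snRNP proteins and catalytic factors, had 1 of 63 measured genes lower, 3 higher and a median of 0.039. Prpf39, a U1-associated protein, fell by 1.47 on the log2 scale (adjusted p = 0.00088). Sf3b4 and Sf3a2, subunits of the U2 particle, rose by 1.29 and 1.27 (adjusted p = 0.000707 and 0.000322), and Snrpd2, a protein of the Sm ring, rose by 1.09 (adjusted p = 0.000891). Averaged over its probe sets the difference of Snrpd2 was 0.59, and without DNTLX3+ replicate 2 it was 0.998, neither of them a call. At its probe set numbered among its own chromosome it was 0.83, also not a call. Sf3b4, a gene of chromosome 3, was read by a probe set numbered between those of chromosome 15 genes, so its size is uncertain. With probe sets numbered among their own chromosome 2 core genes were called higher. At the adjusted p alone 7 core genes were lower (11.1%) and 12 higher (19%). The core median was 0.19 after quantile or loess scaling and -0.022 with equal array medians, so its sign is not settled. It lay above that of the members under each. Since the members' families were chosen by their differences between these groups, this order supports nothing about them.

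Other regulators, those outside the families of the members, had 5 of 47 genes lower and 1 higher, with a median of -0.27, and 21 lower and 7 higher at the adjusted p alone. Tia1, which binds U-rich RNA after 5′ splice sites, fell by 1.42 (adjusted p = 0.000289), and Pnn, a speckle-associated protein, fell by 1.35 (adjusted p = 0.000261). Ptbp2 and Ptbp3, paralogs of the splicing repressor PTB, fell by 1.14 and 1.04, and the helicase Ddx17 fell by 1.03. Qk, which binds ACUAA-like elements, rose by 1.63 (adjusted p = 7.12e-05), but averaged over its 3 probe sets its difference was 0.64 and not called. After quantile or loess scaling Tia1 and Pnn were still called and Ptbp2, Ptbp3 and Ddx17 were not. Without DNTLX3+ replicate 1 the differences of Ptbp3 and Ddx17 were -0.89 and -0.94, and neither was called.

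Another list held kinases outside the CLK family, their cyclins and phosphatase subunits, acting on SR proteins or on the transcription machinery. Of its 18 genes 1 was called lower (5.56%), near the share of all genes, and 0 higher. At the adjusted p alone 4 were lower (22.2%) and 2 higher, and the list's median was -0.21. The call was Ccnt2, a cyclin of the elongation kinase P-TEFb, with a difference of -1.10 (adjusted p = 0.00349), and it was lost under quantile and loess scaling and without DNTLX3+ replicate 1 (-0.84). Srpk1, which phosphorylates SR proteins in the cytoplasm, differed by -0.086 and its groups overlapped, while Srpk2 differed by -0.74. Genes of nonsense-mediated decay and mRNA export had 3 of 22 lower, 0 higher and a median of -0.14, with 7 lower and 4 higher at the adjusted p alone. Upf2, a decay factor, fell by 1.22 (adjusted p = 0.000691), Thoc2, of the export complex THO, fell by 1.16 (adjusted p = 0.000639), and Smg1, the kinase of Upf1, fell by 1.09 (adjusted p = 0.00417). Without DNTLX3+ replicate 1 the difference of Smg1 was -0.86 and not called. Upf1 itself differed by -0.05. After quantile or loess scaling Upf2 was still called, Thoc2 and Smg1 were not, and Eif4a3, of the exon junction complex, was called higher.

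**Figure D3:**
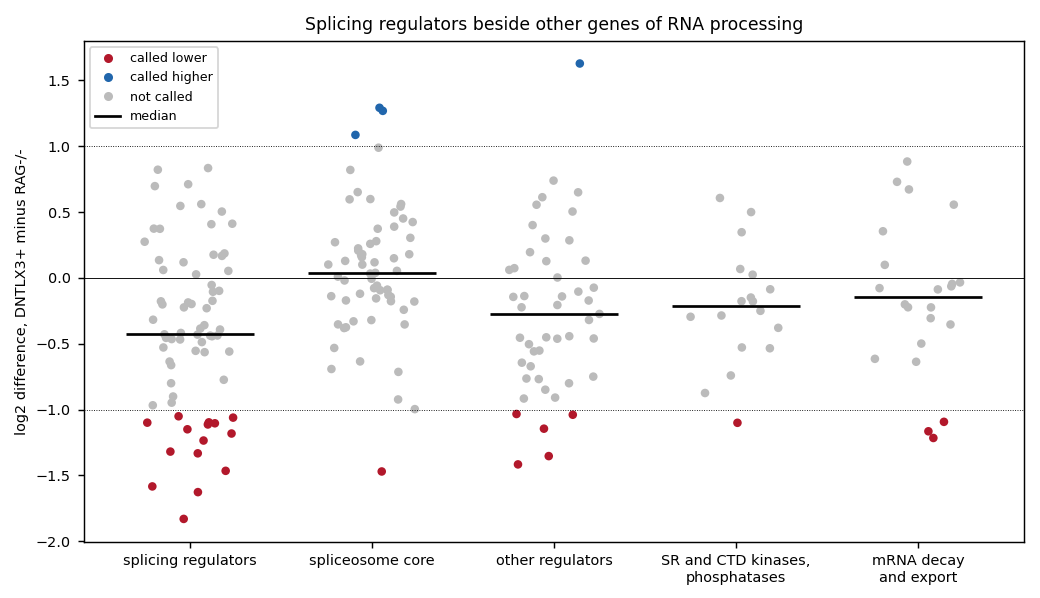
Differences between groups, on the log2 scale as DNTLX3+ minus RAG-/-, for the members and 4 other lists of the splicing pathway, with 1 dot per gene and bars at the medians. The members have the lowest median (-0.42) and the spliceosome core the highest of the 5 lists (0.039). The members' families were chosen by their differences between these groups, so their place in this order supports nothing about them.

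The 2 groups also differed in spread and in other cell markers. Over the members the median SD was 0.075 in RAG-/- and 0.17 in DNTLX3+, against 0.10 and 0.20 over all genes. DNTLX3+ replicate 1 was the lowest of its group in 51 of 70 members (72.9%), against 41.2% of all genes and 60.4% of genes at or above the median level. The median level of the 15 called members was 9.83, 9.80 and 9.82 in RAG-/- and 8.59, 8.67 and 8.77 in DNTLX3+. The summed linear signals of 14 T-lineage markers were 37126 to 38917 in RAG-/- and 23358 to 29811 in DNTLX3+. Of the 14, 2 fell and 1, Cd8b1, rose. Group means lay under the array medians for 2 of them in RAG-/-, Cd8b1 included, and for 1 in DNTLX3+. At the adjusted p alone 9 of the 14 were lower and 2 higher, with a median difference of -0.48. All 14 myeloid and dendritic markers fell, from sums of 7360 to 9187 down to 732 to 783. Of the NK markers 8 of 11 fell, and the sum of the list went from 3198 to 3817 down to 1452 to 1944. Gzma, on the same list, was higher at the adjusted p alone (0.76), with a DNTLX3+ mean of 9.73. The DNTLX3+ means of 8 of the 11 NK markers lay under the array medians. The B-cell sum was 688 to 728 against 491 to 566 with 0 of 8 called, and 3 of the 11 stromal markers were lower. The stromal list held Thy1, which T cells express, and without it the stromal sum was 1407 to 1729 in RAG-/- and 990 to 1142 in DNTLX3+. In bulk samples fewer cells of a type and less RNA per cell cannot be told apart. The part of these cells in the differences of the members was not tested.

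Gene properties that the choice of members did not use were set against the differences as a description. The 15 called members lay on 12 chromosomes. Their median gene length was 31.4 kb, against 17.8 kb for the other members, with ranges of 5.01 to 135 kb and 2.68 to 206 kb that overlapped. Across the 70 members the difference and the logarithm of gene length had a Pearson r of -0.23. Across the 64 members at or above the median level it was -0.251, and across the 10751 genes of that level with a length it was -0.245. These genes share the same 6 arrays and are not independent.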

How the data were processed

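Each sample was hybridised to 1 Affymetrix mouse gene array, and 34760 probe sets were read. The deposited values are log2 intensities that the authors made with RMA in R 2.9.0 with affy, a method that equalizes the arrays' distributions before it sums probes into probe sets, per the submitters' processing notes. Here 6568 control probe sets were left out and 28192 were tested: 21640 carried 1 gene symbol in the platform annotation, 1321 several and 5231 none. Levels are not absolute, and the number of arrays, 3 a group, limits the precision.

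Groups were compared with limma 3.58.1 in R 4.3.3 (lmFit and eBayes, Benjamini-Hochberg over all probe sets tested), with no filter and no block, and the procedure was tested on simulated data. Marker sums add 2 to the power of each value. Figures used matplotlib 3.10.9. Members were taken by symbol, and the members, lists and tests were chosen with earlier results of these data known. Genes named with values in every array were the called members, each family's highest-mean member, its largest rise and fall at the adjusted p, and listed paralogs. Rbm5 and Srsf9 were added after their values were seen. In the other lists up to 4 called genes a direction were named, and Ddx17, Srpk1, Srpk2, Upf1 and Eif4a3 after their values were seen. Alternatives were 3 scalings, a level filter, other variance models, array weights, a replicate block, probe-set means, other call rules and leaving out each array, and, added after seeing the data, probe sets numbered among their gene's chromosome and a stromal list without Thy1. Of the symbols that the rule covers, Clk2, Hnrnpa1, Hnrnpa3, Hnrnph3, Rbm12, Rbm14 and Rbm4 lay on probe sets with several symbols and were not used. Protein sequences were not used here. Same-numbered arrays showed no clear common deviation, but 3 arrays a group cannot exclude a shared batch.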

Additional observations from a re-analysis of the deposited data

How the results depend on the processing

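Of the 15 members called lower, 11 remained called after a second quantile normalization, 10 after cyclic loess and 12 with array weights, where 4.18%, 4.46% and 4.3% of all genes were called lower. Clk1, Clk4, Ccnl1, Ccnl2, Prpf4b, Rbm26, Rbm39 and Srsf5 were called under every alternative but one, the test against a minimum difference, which left Clk1 alone (1 member lower, and 0.612% of all genes). Reversed differences were 0.0772 for Clk3, 0.0118 for Hnrnpk and 0.115 for Rbm28 after the second quantile normalization, and 0.0864 for Clk3 and 0.0779 for Rbm28 after cyclic loess. With equal array medians they were -0.00712 for Hnrnpd, -1.28e-05 for Hnrnph2 and -0.0333 for Hnrnpul1, and with probe-set means -0.162 for Hnrnph2 and 0.0382 for Hnrnpk. At probe sets numbered among the gene's own chromosome they were 0.263 for Hnrnpk and -0.679 for Srsf3. Leaving out 1 array gave -0.0929 to 0.0102 for Clk3 (above 0 without DNTLX3+ replicate 1), -0.0104 to 0.139 for Hnrnph2 (-0.00828 without RAG-/- replicate 3, lowest without DNTLX3+ replicate 2) and -0.00788 to 0.0705 for Hnrnpul1 (below 0 without DNTLX3+ replicate 2).

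After the second quantile normalization 14 members were higher at the adjusted p alone, with the share of all genes not counted there, and the members' median was -0.254. Under it and cyclic loess, 2 other regulators, 0 kinases and 1 decay or export gene were lower, and 1 of the last list was higher. With equal array medians 2 core genes were lower. With array weights 3 other regulators and 0 kinases were lower, with probe-set means 0 other regulators were higher, and without variance moderation 0 kinases were lower. With no minimum difference 35 members were lower and 9 higher, as were 7 and 12 core genes, 21 and 7 other regulators, 4 and 2 kinases, and 7 and 4 decay or export genes. The test against a minimum difference left 0 calls in the other lists, save 1, Qk, which was still higher.

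Leaving out 1 array at a time gave 12 to 18 members lower (4.11% to 5.8% of all genes) and medians of -0.465 to -0.296. At the adjusted p alone 23 to 35 members were lower and 5 to 9 higher, with the shares of all genes not counted. Leaving out 1 array also gave 1 to 3 core genes lower and 2 to 4 higher, 3 to 5 other regulators lower, 0 to 2 kinases lower and 2 to 3 decay or export genes lower. The lowest count of members came without DNTLX3+ replicate 1, where Rbm15, Rbm41 and Son were lost. Replicate numbers were tested as pairs, and deviations of same-numbered arrays correlated at -0.108, 0.0604 and -0.0017. Those of arrays with unlike numbers ran from -0.146 to 0.118. With 3 arrays a group these values cannot exclude a shared batch. With the number as a block 15 members were still called lower (5.08% of all genes). Signal over background was not analysed here, so genes under the median level, such as Rbm46, Rbm47 and Srsf12, are the least certain. The causes of these shifts were not tested.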
